A study of Homo sapiens with 18 samples.

Results

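The ephrin ligands are the 8 genes EFNA1, EFNA2, EFNA3, EFNA4, EFNA5, EFNB1, EFNB2 and EFNB3, out of 34287 genes to which the deposited transcripts could be summed. The family was selected on EFNB2, whose level in these libraries differed strongly between the cell lines and hardly changed with isoproterenol. The values of EFNB2 are therefore given as a description without any test, and the other 7 ephrins, which were taken by name, were tested within the fit over 15530 genes. All 8 had enough counts to enter that fit.

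The libraries came from HEK293 cells, a human embryonic kidney line, in 3 genotypes: wildtype, β-arrestin1/2 KO (both β-arrestin genes, ARRB1 and ARRB2, edited) and Gαs KO (GNAS, the gene of the stimulatory G protein subunit, edited), both KO lines made by CRISPR-Cas9. All cells, wildtype included, had been transfected with a plasmid for wild type β2-adrenergic receptor, which they overexpressed transiently, and were starved of serum overnight. After 48 h they received vehicle (basal) or 1 μM isoproterenol, an agonist of that receptor, for 1 h. Each of the 6 groups had 3 biological replicates, so 18 libraries of poly-T-selected RNA were compared. Whether a KO line is 1 clone is not given in the sources used here, and a difference between lines cannot be told apart from a difference between clones.

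Ephrins are cell surface proteins that bind Eph receptor tyrosine kinases on neighbouring cells. The A class (EFNA genes) is held in the membrane by a glycosylphosphatidylinositol anchor and binds mainly EphA receptors, whereas the B class (EFNB genes) crosses the membrane and binds mainly EphB receptors. Contact signals into the receptor-bearing cell (forward) and into the ephrin-bearing cell (reverse), and these signals guide axons, set tissue boundaries and, for EFNB2 with its receptor EPHB4, separate arteries from veins.

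Library totals ran from 17908597 to 25019834 counts. The targeted genes were read first. GNAS averaged 25090 normalized counts (counts scaled to 1 effective library size) in wildtype basal and 1258 in Gαs KO basal libraries, a fold of 0.0502. ARRB2 averaged 1883 in wildtype and 395.6 in β-arrestin1/2 KO basal libraries (log2 difference -2.25, edgeR quasi-likelihood adjusted p = 2.58e-08), whereas ARRB1 averaged 944.1 and 782.0 (log2 difference -0.27 ± 0.14, SE, adjusted p = 0.141). Such counts do not show whether protein is made. The paper reports from Western blots that the KO cells had lost Gαs or both β-arrestins, respectively. Wildtype basal replicate 1 stood apart: the mean GC content of its counts was 52.5%, against 49.1 to 50.1% in the other libraries, and its chi-square per gene against the other replicates of its group was 132 and 104, against 3.99 to 13.6 in all other replicate pairs. Calls of ephrins that use the wildtype basal group are given with and without it. Levels per length and their sums include it unless stated.

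The promoters of EFNB2, EFNA2 and EFNB1 are shown because these ephrins had the largest log2 difference of their class or direction between β-arrestin1/2 KO and wildtype cells at basal. Each sequence holds 250 bases before and 50 after the RefSeq start site (GRCh38.p14), read 5′ to 3′ on the strand of the gene. Capitals mark GC boxes, the letters GGGCGG or their reverse complement CCGCCC, to which Sp family factors bind. EFNB2 lies at chr13:106535613-106535912 on the minus strand, EFNA2 at chr19:1285623-1285922 on the plus strand and EFNB1 at chrX:68828771-68829070 on the plus strand.
EFNB2: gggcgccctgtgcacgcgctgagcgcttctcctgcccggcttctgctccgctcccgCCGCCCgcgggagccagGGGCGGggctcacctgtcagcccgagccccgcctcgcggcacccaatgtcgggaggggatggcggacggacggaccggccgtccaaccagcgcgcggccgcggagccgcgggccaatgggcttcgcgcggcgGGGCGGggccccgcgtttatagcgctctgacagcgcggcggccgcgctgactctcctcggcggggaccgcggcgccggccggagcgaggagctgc
EFNA2: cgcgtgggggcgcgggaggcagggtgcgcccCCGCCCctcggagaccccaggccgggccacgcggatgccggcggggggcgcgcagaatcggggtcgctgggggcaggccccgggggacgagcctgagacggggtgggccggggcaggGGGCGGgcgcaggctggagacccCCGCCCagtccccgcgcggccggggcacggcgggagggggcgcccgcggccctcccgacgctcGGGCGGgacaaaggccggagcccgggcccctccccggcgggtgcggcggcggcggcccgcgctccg
EFNB1: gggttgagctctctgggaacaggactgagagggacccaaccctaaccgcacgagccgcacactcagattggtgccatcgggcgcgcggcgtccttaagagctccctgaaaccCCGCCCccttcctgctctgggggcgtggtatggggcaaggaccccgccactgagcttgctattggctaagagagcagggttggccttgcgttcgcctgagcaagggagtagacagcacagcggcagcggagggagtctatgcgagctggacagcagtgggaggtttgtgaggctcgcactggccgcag
EFNB2 held 3 GC boxes, EFNA2 held 4 and EFNB1 held 1, and the GC content of these 300 bases was 78.7%, 85.3% and 63.7%. Promoters were found for 7 of the 8 ephrins, the exception being EFNB3, and a GC box lay in all 7, against 45.0% of 35116 promoters of the same length. The cAMP response element TGACGTCA, which binds the factor CREB downstream of Gαs, lay in 0 of the 7 promoters on either strand, against 1.85% of all promoters. Its shorter form TGACG, which is part of the longer element, lay in 0 of 7 against 24.6%. These matches describe letters in a short window and show nothing about factor binding.

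EFNB2 (ENSG00000125266, chr13:106489731-106535662, minus strand), the transmembrane ligand known for marking arterial endothelium, was higher in β-arrestin1/2 KO cells than in wildtype or Gαs KO cells, with and without isoproterenol. The wildtype basal libraries had 1276, 1422 and 1550 normalized counts, and the β-arrestin1/2 KO basal libraries had 12090, 12500 and 12350. The lowest β-arrestin1/2 KO library lay far above the highest wildtype library, and the 3 replicates of the KO line differed little among themselves (12310 ± 210, SD, n = 3, against 1416 ± 137). The fold was 8.70 (log2 3.12 ± 0.08, SE), or 3.05 on the log2 scale without wildtype basal replicate 1.

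The Gαs KO basal libraries had 1141, 1085 and 1029 normalized counts of EFNB2, all below the wildtype basal libraries (log2 -0.38 ± 0.08, or -0.46 without wildtype basal replicate 1). Against Gαs KO cells, EFNB2 in β-arrestin1/2 KO cells was 11.35-fold higher at basal. Of the 15530 genes, 136 were raised more than EFNB2 on the log2 scale in β-arrestin1/2 KO against wildtype cells at basal. Against Gαs KO cells 88 were raised more. Counting rises and falls, 203 and 161 genes had a larger log2 difference in these 2 comparisons.

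With isoproterenol the order of the lines for EFNB2 was the same. Wildtype libraries then had 1630, 1513 and 1505 normalized counts, β-arrestin1/2 KO libraries 13510, 14090 and 12890, and Gαs KO libraries 1194, 1218 and 1097. The groups did not overlap between lines, and the log2 differences were 3.12 (β-arrestin1/2 KO minus wildtype), -0.41 (Gαs KO minus wildtype) and 3.53 (β-arrestin1/2 KO minus Gαs KO).

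Between basal and isoproterenol EFNB2 moved little beside these differences. In wildtype cells its log2 response was 0.13 ± 0.08 (SE). The response of the β-arrestin1/2 KO line was 0.13 ± 0.07 and that of the Gαs KO line 0.11 ± 0.08. The treated and untreated libraries overlapped in wildtype and Gαs KO cells, while in β-arrestin1/2 KO cells the lowest treated library (12890) lay above the highest basal library (12500). The responses of the KO lines differed from the wildtype response by 0.00 and -0.02 on the log2 scale. The wildtype response was 0.06 when wildtype basal replicate 1 was left out.

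Markers of other cell types were read beside EFNB2, since fewer cells of a type and less RNA per cell cannot be told apart in bulk libraries. The levels here are per length, counts per base of annotated transcript, scaled to the same sum in every library. VIM, KRT8 and KRT18, which HEK293 cells are known to express, were at 659 to 1592, 580 to 904 and 292 to 425 in the 18 libraries, while NEFM and PAX2 did not exceed 2.83 and 5.22. The sum of these 5 genes was higher in Gαs KO (2752 to 2863) than in all other libraries (1620 to 2167). The sum of 5 endothelial markers (PECAM1, CDH5, VWF, TEK, ESAM) lay between 1.93 and 4.70 in every library and overlapped between all lines. PECAM1 and CDH5 had at most 12 and 26 counts, whereas VWF had 35 to 133, ESAM 16 to 41 and TEK 3 to 21 counts per library.

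The fibroblast marker list moved with the β-arrestin1/2 KO line, and its part in the EFNB2 difference was not tested. The sum of 4 fibroblast genes was 19.7 to 24.1 in β-arrestin1/2 KO basal and 21.4 to 22.2 in treated libraries, against 14.8 to 17.8 and 14.03 to 16.9 in wildtype and 12.4 to 14.4 and 10.7 to 13.2 in Gαs KO cells. COL1A1 carried that sum, while COL1A2 and DCN had at most 3 and 4 counts.

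Among the ephrins of wildtype basal cells, levels per length were highest for EFNB1 (31.6 ± 4.70, SD, n = 3) and EFNB2 (29.6 ± 4.58), whose libraries overlapped. That overlap rested on replicate 1, where EFNB1 was at 36.92 and EFNB2 at 24.46. In replicates 2 and 3 EFNB2 (31.01 and 33.26) lay above EFNB1 (29.62 and 28.13). EFNA5 (17.1), EFNA3 (14.2), EFNA1 (10.1) and EFNA2 (9.88) came next, each overlapping its neighbour in this order. Without replicate 1 EFNA5 (21.42 and 15.14) did not overlap EFNA3 (11.06 and 11.9). EFNB3 (5.88) and EFNA4 (4.89) were lowest and overlapped each other.

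In β-arrestin1/2 KO basal cells EFNB2 stood at 270.4 ± 4.64 per length, and the next ephrin, EFNB1, at 22.7 ± 0.32. EFNA2 (22.6) overlapped EFNB1. EFNA1 (19.5), EFNA3 (16.9) and EFNA5 (15.0) followed, and EFNB3 (9.51) and EFNA4 (6.45) were again lowest. Gαs KO basal cells kept EFNB1 (27.1) and EFNB2 (22.2) on top without overlap, followed by EFNA3 (19.8) and EFNA5 (17.1).

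At basal EFNB2 made up 24.1% of the summed per-length level of the 8 ephrins in wildtype cells, 70.6% where β-arrestin1/2 was edited and 18.2% where Gαs was edited. With isoproterenol the shares were 26.0%, 75.9% and 20.3%. The sum of all 8 was 123 ± 2.40 (SD, n = 3) in wildtype basal cells, against 383 ± 8.67 for β-arrestin1/2 KO and 122 ± 2.42 for Gαs KO. Without EFNB2 the other 7 summed to 93.7 ± 6.98, 113 ± 5.66 and 100.1 ± 2.24. The A class alone summed to 56.2 ± 2.24, 80.4 ± 5.10 and 66.3 ± 2.21, and EFNB1 with EFNB3 to 37.4 ± 4.77, 32.2 ± 0.60 and 33.7 ± 0.93.

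**Figure D1:**
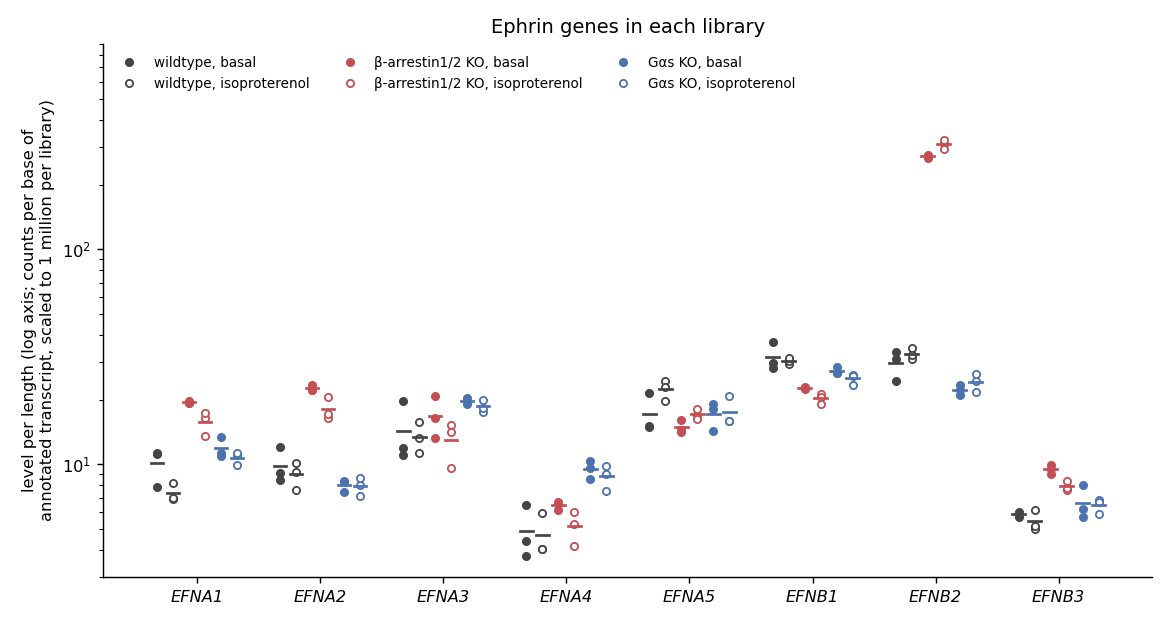
Level per length (counts per base of annotated transcript, scaled to the same sum in every library, log axis) of each ephrin gene in the 18 libraries. Filled points are basal and open points isoproterenol libraries, colours are cell lines, and short lines are group means. EFNB2 in β-arrestin1/2 KO cells, with means of 270.4 and 307.7, lies above every other ephrin in any line.

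The 7 ephrins other than EFNB2 were tested between lines to see how the rest of the family stood in each genotype. At basal, 3 rose and 1 fell in β-arrestin1/2 KO against wildtype cells, 4 of 7 where 33.5% of all genes were called (edgeR quasi-likelihood test, Benjamini-Hochberg adjusted p under 0.05). In Gαs KO against wildtype cells 1 rose and 2 fell, 3 of 7 where 31.3% of all genes were called. Between the KO lines 3 were higher and 1 lower in β-arrestin1/2 KO cells, 4 of 7 where 26.2% of all genes were called. The median log2 difference of the 7 was 0.25, 0.04 and 0.13 in these comparisons, against 0.02, 0.01 and 0.00 over all genes. These 3 comparisons share their libraries. Each p-value rests on the spread between biological replicates, estimated jointly over all 6 groups of 3 libraries, wildtype basal replicate 1 included.

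EFNA1 (chr1:155127460-155134857, plus strand), a ligand of EPHA2, rose in β-arrestin1/2 KO cells. Wildtype basal libraries had 197, 134 and 175 normalized counts and β-arrestin1/2 KO basal libraries 325, 299 and 326, so every KO library was above every wildtype library. The log2 difference was 0.91 ± 0.15 (SE, adjusted p = 0.000266). Gαs KO libraries, with 225, 198 and 195, overlapped wildtype (log2 0.29 ± 0.15, adjusted p = 0.173) and lay below β-arrestin1/2 KO (0.62 on the log2 scale between the KO lines, adjusted p = 0.00566).

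EFNA2 (chr19:1286154-1300237, plus strand), a ligand known from topographic axon maps, had the largest difference among the 7. Its normalized counts were 97.4, 86.6 and 116 in wildtype, 194, 202 and 208 in β-arrestin1/2 KO and 77.1, 77.4 and 69.2 in Gαs KO basal libraries. The 3 lines did not overlap, with β-arrestin1/2 KO highest and Gαs KO lowest. EFNA2 rose by 1.01 ± 0.15 on the log2 scale against wildtype (adjusted p = 8.92e-05) and by 1.43 against Gαs KO cells (adjusted p = 3.09e-06). The lower value in Gαs KO cells passed narrowly (log2 -0.42 ± 0.15, adjusted p = 0.0475). That call was kept under only 7 of 27 alternatives, and without wildtype basal replicate 3 its log2 difference was -0.31 (adjusted p = 0.173).

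EFNA4 (chr1:155063731-155069553, plus strand) was the only tested ephrin called higher in Gαs KO than in wildtype cells at basal. Without wildtype basal replicate 1, EFNA3 and EFNA1 were called higher there too. EFNA4 had 65.3, 75.5 and 44.6 normalized counts in wildtype and 113, 123 and 104 in Gαs KO basal libraries. The β-arrestin1/2 KO basal libraries had 75.2, 75.6 and 69.5. The Gαs KO libraries lay above all others, and wildtype and β-arrestin1/2 KO libraries overlapped. The log2 difference from wildtype was 0.88 ± 0.22 (SE, adjusted p = 0.00551). In β-arrestin1/2 KO minus Gαs KO cells it was -0.63 (adjusted p = 0.0393), a call lost without any of the 6 basal libraries of these lines, or replicate 3 of either line with isoproterenol (log2 -0.68 to -0.56, adjusted p = 0.051 to 0.126).

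EFNA3 (chr1:155078872-155087538, plus strand) and EFNA5 (chr5:107376889-107670895, minus strand), the other A class ligands, did not pass in any basal comparison. EFNA3 had 367, 169 and 184 normalized counts in wildtype basal libraries, the first being replicate 1, and 284, 214 and 252 in β-arrestin1/2 KO libraries, which overlapped them. EFNA5 had 584, 866 and 778 in wildtype, 705, 654 and 688 in β-arrestin1/2 KO and 585, 624 and 659 in Gαs KO libraries, and again the lines overlapped. Without wildtype basal replicate 1 both passed against wildtype. EFNA3 was then higher by 0.51 in β-arrestin1/2 KO (adjusted p = 0.0328) and by 0.81 in Gαs KO cells (adjusted p = 0.00166), and EFNA5 was lower, with log2 differences of -0.26 (adjusted p = 0.00766) and -0.40 (adjusted p = 0.000266).

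EFNB1 (chrX:68828997-68842147, plus strand), the B class ligand mutated in craniofrontonasal syndrome, was lower in β-arrestin1/2 KO cells, where EFNB2 was higher. Wildtype basal libraries had 1488, 982 and 944 normalized counts, β-arrestin1/2 KO libraries 700, 727 and 693, and Gαs KO libraries 855, 920 and 858. Wildtype was highest and β-arrestin1/2 KO lowest, with no overlap between lines. EFNB1 fell by 0.69 ± 0.13 on the log2 scale in β-arrestin1/2 KO (adjusted p = 0.000668) and by 0.38 ± 0.13 in Gαs KO cells (adjusted p = 0.0353). The highest of these values, 1488, was wildtype basal replicate 1. Without it the differences were -0.44 (adjusted p = 2.19e-05) and -0.14 (adjusted p = 0.087), so the call in Gαs KO cells was lost. It was also lost without any of the 3 Gαs KO basal libraries (log2 -0.41 to -0.36, adjusted p = 0.0588 to 0.0971).

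EFNB3 (chr17:7705202-7711378, plus strand), known as a midline barrier to corticospinal axons, moved in the direction of EFNB2 but less. Its normalized counts were 232, 193 and 186 in wildtype, 294, 281 and 287 in β-arrestin1/2 KO and 194, 181 and 252 in Gαs KO basal libraries. β-arrestin1/2 KO libraries were above all others, while wildtype and Gαs KO overlapped. EFNB3 rose by 0.49 ± 0.13 on the log2 scale against wildtype (adjusted p = 0.00873) and by 0.46 against Gαs KO cells (adjusted p = 0.0165). The second call was lost without Gαs KO basal replicate 1 (0.42, adjusted p = 0.0671) or 2 (0.37, adjusted p = 0.0818).

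Leaving out wildtype basal replicate 1, the number of the 7 ephrins called at basal was 6 in β-arrestin1/2 KO and 5 in Gαs KO against wildtype, and 5 between the KO lines. The share of all genes called was then 47.5%, 46.6% and 46.0%. The log2 differences between β-arrestin1/2 KO and wildtype cells were then 1.04 for EFNA1, 1.00 for EFNA2 and 0.60 for EFNB3. Those between Gαs KO and wildtype cells were 0.91 for EFNA4, -0.44 for EFNA2 and 0.41 for EFNA1 (adjusted p = 0.0429). EFNB1 was then called lower in β-arrestin1/2 KO than in Gαs KO cells (-0.30, adjusted p = 0.000321).

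The same comparisons were made in the isoproterenol libraries, which hold other cells than the basal ones and do not include wildtype basal replicate 1. Against wildtype, 3 ephrins rose and 1 fell in β-arrestin1/2 KO cells, 4 of 7 where 30.0% of all genes were called. In Gαs KO cells 2 rose and 1 fell, 3 of 7 where 29.9% were called. Between the KO lines 3 were higher in β-arrestin1/2 KO and 1 lower, 4 of 7 where 31.1% were called. The median log2 differences were 0.11, 0.21 and 0.28, against 0.01, 0.01 and 0.00 over all genes.

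In treated β-arrestin1/2 KO cells EFNA1, EFNA2, EFNB3 and EFNB1 were called, as at basal and in the same direction. EFNA1 had 295, 230 and 311 normalized counts against 115, 155 and 127 in wildtype (log2 1.07, adjusted p = 7.35e-05). EFNA2 had 151, 156 and 192 against 96.2, 87.7 and 73.8 (log2 0.95, adjusted p = 0.000192). Neither gene's groups overlapped. EFNB3 (248.5 ± 10.4 against 176.8 ± 18.8 normalized counts, SD, n = 3) rose by 0.49 on the log2 scale (adjusted p = 0.0106), a call lost without wildtype isoproterenol replicate 1 (0.43, adjusted p = 0.0518). EFNB1 had 614, 678 and 673 against 966, 1008 and 1059 in wildtype and fell by 0.63 (adjusted p = 0.00163).

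In treated Gαs KO cells EFNA4 rose again, with 121, 86.7 and 112 normalized counts against 47.6, 70.6 and 47.8 in wildtype (log2 0.94, adjusted p = 0.00368). EFNA5 fell, with 631, 608 and 608 against 903, 852 and 996 (log2 -0.57 ± 0.11, SE, adjusted p = 0.00107). All Gαs KO libraries lay above wildtype for EFNA4 and below it for EFNA5. EFNA1 rose by 0.48 (adjusted p = 0.0295), but that call was lost without wildtype isoproterenol replicate 1 or 3 or any of the 3 treated Gαs KO libraries (log2 0.38 to 0.49, adjusted p = 0.0599 to 0.129). EFNB1 and EFNA2, called in Gαs KO at basal, had log2 differences of -0.30 (adjusted p = 0.0881) and -0.21 (adjusted p = 0.332) with isoproterenol.

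Between the treated KO lines EFNA2 was higher by 1.17 (adjusted p = 2.5e-05), EFNA1 by 0.60 (adjusted p = 0.00677) and EFNA5 by 0.33 (adjusted p = 0.0362) in β-arrestin1/2 KO cells, and EFNA4 was lower (log2 -0.84, adjusted p = 0.00758). The EFNA5 call was lost without any of the 6 treated libraries of these lines (log2 0.31 to 0.35, adjusted p = 0.0719 to 0.0964). Leaving out wildtype basal replicate 1, which enters these fits only through the shared spread, gave 5, 5 and 6 called ephrins in the 3 comparisons, where 50.3%, 50.2% and 51.9% of all genes were called.

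**Figure D2:**
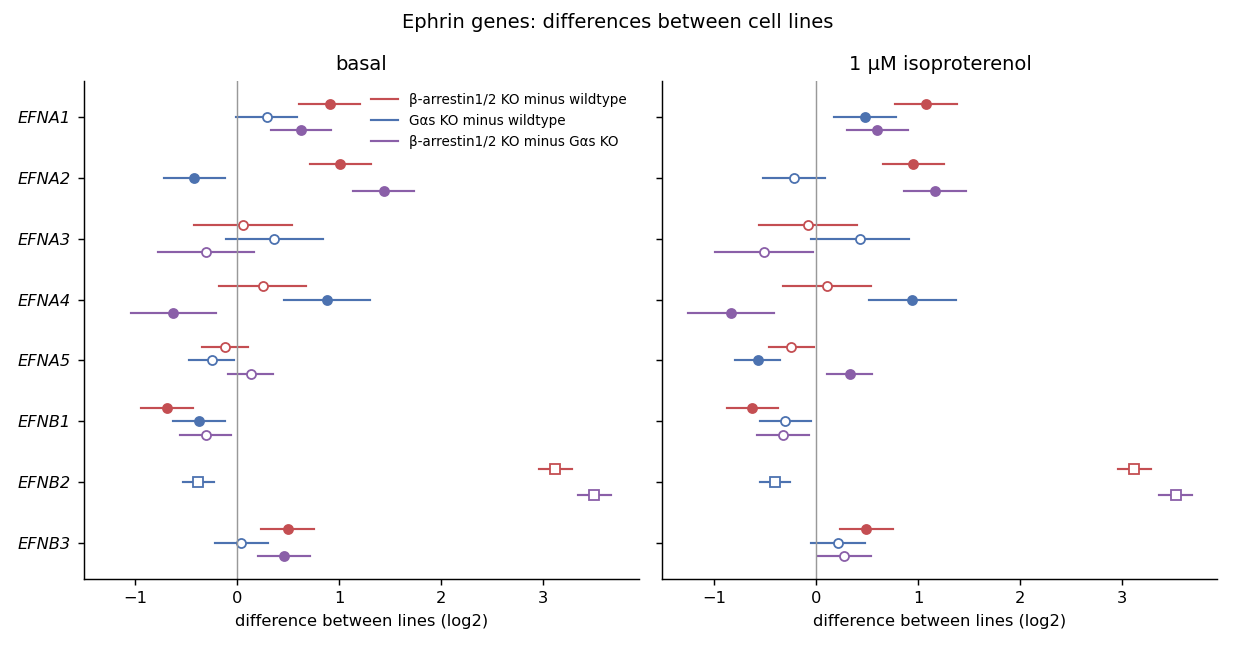
Log2 difference between cell lines for each ephrin gene, at basal (left) and with 1 μM isoproterenol (right). Bars are 95% intervals from the standard error. Filled circles are called, open circles are tested and not called, and open squares are EFNB2, which was not tested. The bars of EFNB2 are descriptive only, because the family was selected on its values. EFNB2 lies at 3.12 and above in both comparisons of β-arrestin1/2 KO cells, and the other ephrins lie between -0.84 and 1.43.

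Isoproterenol for 1 h was compared with vehicle in each line to see whether ephrins respond to the receptor. In wildtype cells 0 of 7 ephrins were called by edgeR, where 0.464% of all genes were called, and 2 had an unadjusted p under 0.05. The β-arrestin1/2 KO line also had 0 of 7 called, where 1.13% of all genes were called. In Gαs KO cells 0 of 7 were called, where 0.0% of all genes were called, with 164 of the 15530 at an unadjusted p under 0.05. No ephrin had an unadjusted p under 0.05 in the KO lines, and DESeq2's Wald test called 0 of 7 in each line. When wildtype basal replicate 1 was left out, 0 of 7 were again called in each line, where 1.13%, 11.9% and 0.0% of all genes were called, and EFNA5 had an unadjusted p under 0.05 in wildtype (log2 0.16, adjusted p = 0.361) and in β-arrestin1/2 KO cells (0.18, adjusted p = 0.0969).

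The 2 ephrins with an unadjusted p under 0.05 in wildtype cells were EFNA1 and EFNA5, and both failed the adjustment over all genes. EFNA1 had 197, 134 and 175 normalized counts at basal and 115, 155 and 127 with isoproterenol, and the groups overlapped (log2 -0.35 ± 0.16, SE, adjusted p = 0.462). EFNA5 had 584, 866 and 778 at basal and 903, 852 and 996 with isoproterenol, again overlapping (log2 0.31 ± 0.11, adjusted p = 0.386). When wildtype basal replicate 1 was left out, their log2 responses were -0.22 and 0.16.

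The responses of the 7 ephrins ran from -0.35 to 0.31 on the log2 scale in wildtype cells. They ran from -0.30 to 0.18 in the β-arrestin1/2 KO line and from -0.16 to -0.01 in the Gαs KO line. Their medians were -0.17, -0.21 and -0.07, against 0.00, -0.01 and 0.00 over all genes. EFNA5 alone had a positive value in the wildtype and in the β-arrestin1/2 KO line. When wildtype basal replicate 1 was left out, EFNB1 (0.07) and EFNA3 (0.30) had positive wildtype responses too, from -0.17 and -0.14. The widest 95% interval was that of EFNA3 (-0.63 to 0.34 in wildtype), so changes of that size were not detectable for it with 3 libraries a group.

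Whether the response differed between lines was tested as an interaction. Against the wildtype response, 0 of 7 ephrins were called for β-arrestin1/2 KO cells, where 0.167% of all genes were called, and 0 of 7 for Gαs KO cells, where 0.161% were called. Here too 0 had an unadjusted p under 0.05 and DESeq2 called 0. The largest of these differences was that of EFNA5 in Gαs KO cells (-0.32 on the log2 scale, SE 0.16, adjusted p = 0.889). When wildtype basal replicate 1 was left out, 0 of 7 were called in either interaction, where 8.38% and 0.419% of all genes were called. That of EFNA5 was then -0.17, and the largest was that of EFNA3 in β-arrestin1/2 KO cells (-0.59, adjusted p = 0.15), which with EFNB1 there (-0.18, adjusted p = 0.204) had an unadjusted p under 0.05.

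**Figure D3:**
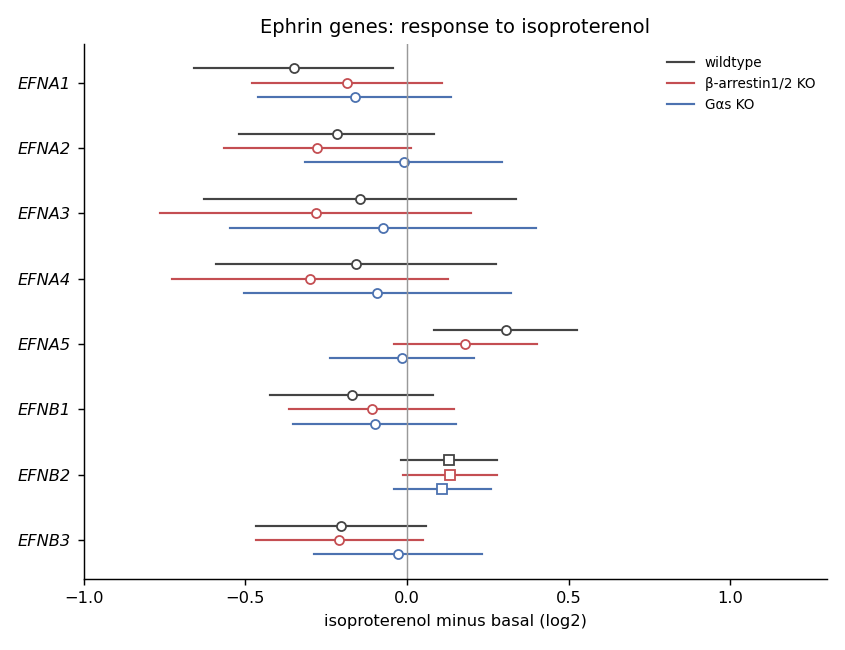
Log2 response of each ephrin gene to 1 μM isoproterenol for 1 h in the 3 cell lines. Bars are 95% intervals from the standard error, open circles are tested and not called, and open squares are EFNB2, which was not tested. The bars of EFNB2 are descriptive only, because the family was selected on its values. All points lie between -0.35 and 0.31, and no gene was called.

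The counts of EFNB2 were divided by the authors' quantification between 2 annotated transcripts, and the division differed between groups. EFNB2-203, the protein-coding transcript, has 4995 bases, and EFNB2-202, a processed transcript without an annotated protein, has 3836, of which 3826 are shared. EFNB2-203 has 1169 bases of its own with a GC content of 62.4% against 46.3% in the shared bases. EFNB2-202 has only 10 bases of its own, so its share is estimated mostly from the lack of reads elsewhere.

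In β-arrestin1/2 KO cells EFNB2-202 held 9.14%, 7.92% and 13.4% of the EFNB2 counts at basal and 35.1%, 31.6% and 39.8% with isoproterenol. The treated libraries lay above all basal ones, with a mean change of 25.4 percentage points. In wildtype cells its share was 54.2%, 29.7% and 28.1% at basal and 19.5%, 5.54% and 33.6% with isoproterenol, which overlapped. In Gαs KO cells it was 0 in all basal libraries and 0, 15.5% and 0 with isoproterenol.

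The GC content of the libraries also differed between these groups, and its part in the share was not tested. The mean GC content of counts was 49.8 to 50.1% in β-arrestin1/2 KO basal and 49.3 to 49.4% in treated libraries, and 52.5% in wildtype basal replicate 1, which had the highest share (54.2%). When only protein-coding transcripts were summed, the log2 difference of EFNB2 from wildtype in the β-arrestin1/2 KO line was 3.63 at basal and 2.81 with isoproterenol, its response was -0.35 in that line and 0.47 in wildtype cells, and its difference between Gαs KO and wildtype cells at basal turned to 0.29.

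**Figure D4:**
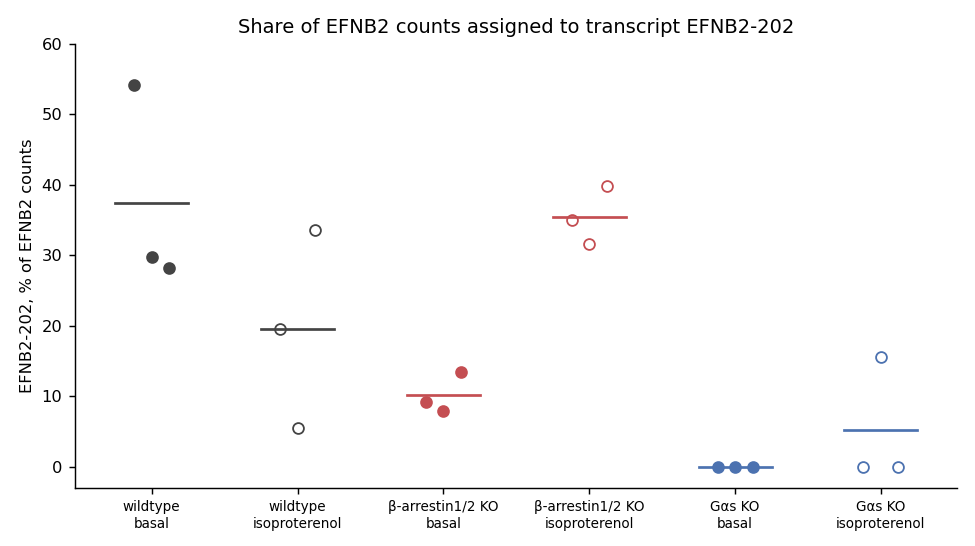
Share of EFNB2 counts assigned to the processed transcript EFNB2-202 in each library, in percent. Points are libraries, filled at basal and open with isoproterenol, and lines are group means. The 3 treated β-arrestin1/2 KO libraries (31.6 to 39.8%) lie above the 3 basal ones (7.92 to 13.4%), while the wildtype groups overlap.

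Of the other ephrins, EFNA2, EFNB1 and EFNB3 had 1 transcript each. EFNA5-201 held 90.2 to 99.3% of the EFNA5 counts in every library and EFNA3-201 held 84.6 to 95.2% of the EFNA3 counts. EFNA1-202 (50.02 to 97.8%) and EFNA4-202 (41.9 to 94.2%) varied more. EFNA4, EFNA3 and EFNA1 lie side by side on chromosome 1, and the read-through gene AL691442.1 (chr1:155063748-155086807), which overlaps EFNA4 and EFNA3, had 0 to 12.5 counts per library. Exchange of reads between these genes was not tested.

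The Eph receptors, through which the ephrins act, were read from a list of 14, of which 13 were found and tested. In β-arrestin1/2 KO against wildtype cells at basal 1 rose and 5 fell, and in Gαs KO cells 4 rose and 5 fell. EPHA2, EPHA7 and EPHA8 fell in both KO lines, and EPHA10, a receptor without kinase activity, rose in β-arrestin1/2 KO cells. The median log2 difference of the list was -0.27 and -0.13, against 0.02 and 0.01 over all genes. These are 46.2% and 69.2% of the receptors, against 33.5% and 31.3% of all genes. When wildtype basal replicate 1 was left out, 7 and 10 receptors were called, where 47.5% and 46.6% of all genes were.

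EPHB4, the main receptor of EFNB2, had the highest mean level per length of the receptors in wildtype (44.9) and Gαs KO cells (48.6) at basal. It stood at 33.2 in β-arrestin1/2 KO cells, beside EPHB2 at 34.8. Its normalized counts were 2599, 1330 and 1548 in wildtype and 1432, 1168 and 1294 in β-arrestin1/2 KO basal libraries, which overlapped. It was called lower in β-arrestin1/2 KO cells (log2 -0.49 ± 0.17, SE, adjusted p = 0.0315), but the highest value, 2599, was wildtype basal replicate 1. Without that library the difference was -0.15 (adjusted p = 0.12), and the call was also lost without β-arrestin1/2 KO basal replicate 2 (-0.41, adjusted p = 0.126) or 3 (-0.48, adjusted p = 0.0836). In Gαs KO cells EPHB4 differed from wildtype by 0.10 (not called), or by 0.44 (adjusted p = 0.000113) without wildtype basal replicate 1.

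EPHA2, the receptor of EFNA1, had 1747, 1063 and 1049 normalized counts in wildtype, 700, 736 and 758 in β-arrestin1/2 KO and 730, 738 and 696 in Gαs KO basal libraries. Every KO library was below every wildtype library. EPHA2 fell by 0.82 ± 0.15 on the log2 scale in β-arrestin1/2 KO (adjusted p = 0.000582) and by 0.84 ± 0.15 in Gαs KO cells (adjusted p = 0.000501). Without wildtype basal replicate 1 these differences were -0.53 (adjusted p = 3.59e-05) and -0.56 (adjusted p = 2.14e-05).

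EPHA7 had 585, 1392 and 1284 normalized counts in wildtype, 574, 578 and 443 in β-arrestin1/2 KO and 466, 500 and 474 in Gαs KO basal libraries. The lowest wildtype value was that of replicate 1, and all KO libraries lay below it. The log2 differences were -1.03 ± 0.23 (SE, adjusted p = 0.00232) and -1.18 ± 0.23 (adjusted p = 0.000892). EPHA10 rose by 1.81 ± 0.19 in β-arrestin1/2 KO cells (adjusted p = 2.78e-06), with 337, 245 and 307 normalized counts against 75.7, 76.6 and 101 in wildtype.

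EPHA5 moved in opposite directions, falling in the β-arrestin1/2 KO (log2 -0.53, adjusted p = 0.0404) and rising in the Gαs KO line (0.95, adjusted p = 0.000916), and it differed between them by -1.49 (adjusted p = 1.9e-05). The first call was kept under 14 of 27 alternatives, with -0.31 (adjusted p = 0.178) without β-arrestin1/2 KO basal replicate 1 and -0.45 (adjusted p = 0.118) without wildtype basal replicate 3. EPHA8 fell by 1.65 on the log2 scale in the β-arrestin1/2 KO and by 1.57 in the Gαs KO line. In Gαs KO cells EPHA3 (0.73) and EPHB1 (0.54) rose, and EPHB3 (-0.86) and EPHB2 (-0.50) fell. EPHA6 was called higher there from 13 to 25 counts per library against 0 to 1 in wildtype basal libraries. EPHA4 had log2 differences from wildtype of 0.12 in the β-arrestin1/2 KO and -0.13 in the Gαs KO line, and EPHB6 of -0.66 and -3.45, none of them called, with EPHB6 at a mean per-length level of at most 0.544 in any group.

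**Figure D5:**
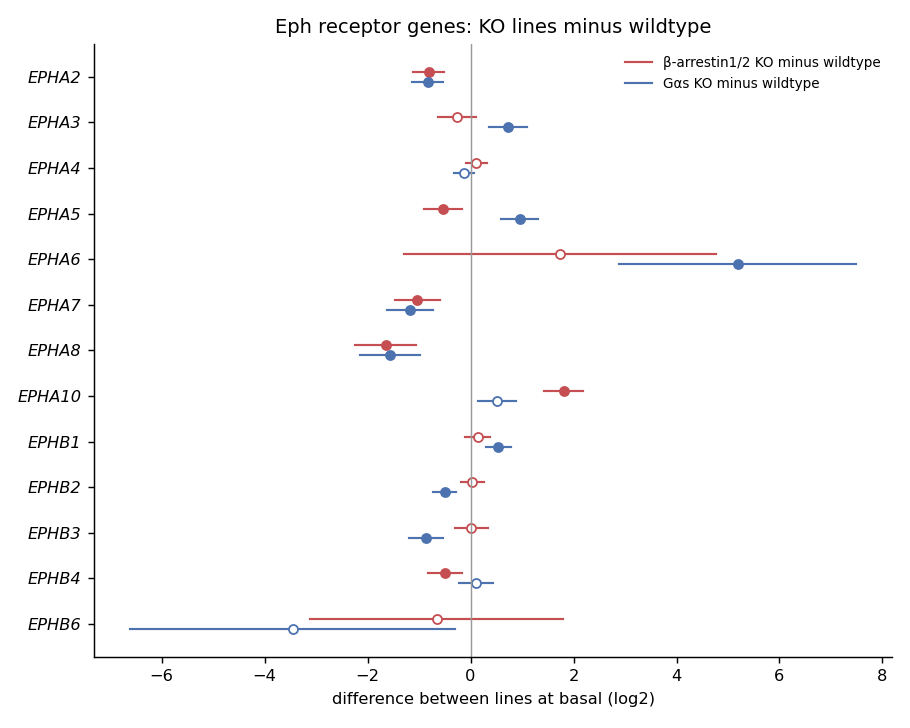
Log2 difference of the 13 tested Eph receptor genes between each KO line and wildtype at basal. Bars are 95% intervals from the standard error, and filled circles are called. EPHA2, EPHA7 and EPHA8 lie to the left in both KO lines, EPHA10 lies at 1.81 in β-arrestin1/2 KO cells, and the wide bars of EPHA6 and EPHB6 come with low counts.

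With isoproterenol the receptor list had 2 higher and 2 lower genes in β-arrestin1/2 KO and 5 higher and 4 lower genes in Gαs KO against wildtype cells. These are 30.8% and 69.2% of the receptors, against 30.0% and 29.9% of all genes. The list's response to isoproterenol was 0 of 13 called in wildtype and Gαs KO and 1 in β-arrestin1/2 KO cells. The shares of all genes called were 0.464%, 0.0% and 1.13%. In wildtype cells EPHA2 was called when wildtype basal replicate 1 was left out (log2 0.44, adjusted p = 0.00707, against 0.16 with it). The receptor called in β-arrestin1/2 KO cells was also EPHA2, which rose from 700, 736 and 758 to 1226, 1085 and 1236 normalized counts (log2 0.69 ± 0.15, SE, adjusted p = 0.0298), without overlap. The call was lost without wildtype isoproterenol replicate 2, any Gαs KO basal library or any of the 6 β-arrestin1/2 KO libraries (log2 0.66 to 0.75, adjusted p = 0.0507 to 0.166). The interactions called 0 of 13 receptors, where 0.167% (β-arrestin1/2 KO) and 0.161% (Gαs KO) of all genes were called.

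Signalling partners of ephrins and Eph receptors (adaptors, Src family kinases, exchange factors and PDZ proteins, 43 genes, all tested) split in direction. In β-arrestin1/2 KO cells 8 rose and 6 fell against wildtype at basal, and in Gαs KO cells 5 rose and 7 fell, with list medians of 0.00 and 0.00 against 0.02 and 0.01 over all genes. These are 32.6% and 27.9% of the list, near the 33.5% and 31.3% of all genes. CNKSR1, a scaffold that links B class ephrins to other signals, rose by 2.73 in β-arrestin1/2 KO cells (adjusted p = 8.91e-09), GRIP2, a PDZ protein, by 2.05 (adjusted p = 6.82e-05, and 3.51 from protein-coding transcripts alone) and CHN2, a Rac GTPase-activating protein, by 1.01 (adjusted p = 0.000252). The GRIP2 values rest on low counts, 23, 10 and 20 before scaling in wildtype and 65, 111 and 79 in β-arrestin1/2 KO basal libraries. In Gαs KO cells the Src family kinases SRC (log2 -0.86, adjusted p = 0.00033) and LYN (-0.79, adjusted p = 7.65e-05) and the adaptor GIT1 (-0.77, adjusted p = 0.000452) fell. They were called lower in β-arrestin1/2 KO cells too, with log2 differences of -0.45 (SRC), -0.48 (LYN) and -0.97 (GIT1), that of SRC being -0.16 and not called without wildtype basal replicate 1. Without that library the Gαs KO difference of SRC was -0.58 and that of GIT1 -0.50, and 22 and 20 of the 43 partners were called in the KO lines, where 47.5% and 46.6% of all genes were.

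Notch pathway members and transcription factors known for arterial identity, where EFNB2 is expressed, were a list of 20 with 19 tested. At basal 4 rose and 4 fell in β-arrestin1/2 KO and 2 rose and 8 fell in Gαs KO cells against wildtype, with list medians of 0.06 and -0.28, where 33.5% and 31.3% of all genes were called. When wildtype basal replicate 1 was left out, 12 were called in each line, where 47.5% and 46.6% of all genes were. FOXC2, a forkhead factor, rose by 1.51 on the log2 scale in β-arrestin1/2 KO cells (adjusted p = 5.19e-07), while the Notch ligand JAG2 (log2 -0.76, adjusted p = 0.00103) and NOTCH3 (-0.62, adjusted p = 0.018) fell. Without wildtype basal replicate 1 the latter were -0.49 and -0.20, and NOTCH3 was not called without β-arrestin1/2 KO basal replicate 2 (-0.58, adjusted p = 0.0642) or 3 (-0.57, adjusted p = 0.0647). The SoxF factors SOX7 (-2.13, adjusted p = 1.89e-05), SOX17 (-1.56, adjusted p = 1.59e-05) and SOX18 (-1.20, adjusted p = 0.000122) fell in Gαs KO cells.

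FOXC2 rose with isoproterenol in 2 of the lines. It had 150, 204 and 231 normalized counts in wildtype basal and 396, 416 and 367 in treated libraries (log2 1.01, adjusted p = 0.000783), and 550, 491 and 623 against 1074, 1061 and 993 in β-arrestin1/2 KO cells (log2 0.91, adjusted p = 0.000748). The groups did not overlap in either line. Its response in Gαs KO cells was 0.25 (not called). HES1, a Notch target, rose with isoproterenol in β-arrestin1/2 KO cells (log2 0.54, adjusted p = 0.00708). HES1 was not called in the wildtype or the Gαs KO response. Of the 19 Notch and arterial regulators tested, 1 was called in the wildtype, 2 in the β-arrestin1/2 KO and 0 in the Gαs KO response. The interactions against wildtype called 0 of these 19 for β-arrestin1/2 KO and 0 for Gαs KO cells, where 0.167% and 0.161% of all genes were called. Among the partners 0 were called in any response. The shares of all genes called in the responses were 0.464% (wildtype), 1.13% (β-arrestin1/2 KO) and 0.0% (Gαs KO).

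Around EFNB2 few other genes were expressed. Within 2 Mb of its start 3 genes were tested, ARGLU1, LIG4 and ABHD13. ARGLU1, whose start lies 51.9 kb away, was called higher in β-arrestin1/2 KO (log2 0.43, adjusted p = 0.0365) and Gαs KO cells (0.68, adjusted p = 0.00232) than in wildtype. Without wildtype basal replicate 1 these were 0.21 and 0.46, and from protein-coding transcripts alone they were -0.27 and -0.06, neither called. The first call was also lost without any of the 3 β-arrestin1/2 KO basal libraries (log2 0.42 to 0.45, adjusted p = 0.0655 to 0.0873). LIG4 and ABHD13 had log2 differences of -0.28 and -0.46 between β-arrestin1/2 KO and wildtype cells, not called, and of -0.76 (adjusted p = 0.0037) and -0.86 (adjusted p = 0.000159) without wildtype basal replicate 1. Within 2 Mb of EFNA1, where EFNA3 and EFNA4 also lie, 99 genes were tested, of which 16 rose and 21 fell in β-arrestin1/2 KO cells, where 33.5% of all genes were called, with a median log2 difference of -0.02.

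The genes whose pattern over the 18 libraries was most like that of EFNB2 were found by the root mean square difference of centred log2 CPM, TMM-scaled. They were EMP1 (0.297), CNKSR1 (0.366), ALPG (0.403), KCTD12 (0.410) and MYOM3 (0.437), with Pearson correlations of 0.983, 0.973, 0.968, 0.993 and 0.974 over the 18 libraries. For each of them the mean of both β-arrestin1/2 KO groups lay above the means of the other groups. The correlations and these higher means follow from the way the genes were picked. EMP1, a membrane protein, averaged 536 normalized counts in β-arrestin1/2 KO, 48.2 in wildtype and 47.7 in Gαs KO basal cells. KCTD12, a GABA-B receptor subunit on the same chromosome (chr13:76880166-76886390), averaged 60140, 3802 and 3771.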

How the data were processed

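The authors deposited expected counts, estimates per transcript made with Salmon 1.7.0 from 150-bp paired-end reads, without normalization for depth or length. GRCh38/hg38 and DESeq2 are named in the submitters' processing notes. The transcript index is not given in the sources used here. Transcripts were summed to genes with GENCODE release 29 (161838 of 184844 matched, 92.9 to 93.8% of a library's counts) and rounded. No sample column was left unused, and the labels give no batch.

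Gene counts were tested with edgeR 4.0.16 (R 4.3.3): TMM scaling, filterByExpr by group, a quasi-likelihood fit of the 6 group means over all 18 libraries, and Benjamini-Hochberg adjustment over 15530 genes with a threshold of 0.05. DESeq2 1.42.0 was an alternative. Descriptions used Python 3.11.15 with numpy 2.4.6, pandas 2.3.3 and matplotlib 3.10.9. Printed 95% intervals are 1.96 SE on each side, narrower than the quasi-likelihood test. The pipeline was tested on simulated data. Totals of 17908597 to 25019834 counts limit the precision of low genes.

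The members, gene lists (Eph receptors, partners, Notch and arterial regulators, cell type markers) and tests were chosen with earlier results of these data known. The sums of the blood and kidney marker lists are not reported here. Named genes were the ephrins, the targeted genes, Eph receptors with at least 10 counts in a library, the 3 called members with the largest difference of the other lists in each KO line against wildtype at basal, and the 5 genes most like EFNB2. HES1, ARGLU1, LIG4 and ABHD13, and genes of responses, were named after their values were seen.

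Same-numbered replicates were checked for pairing: their deviations from the group means correlated between -0.0994 and 0.0769, so libraries were taken as unpaired. Alternatives were 2 other scalings, DESeq2, 2 other filters, only the groups compared, a replicate block, protein-coding transcripts only, a threshold of 0.01 and each library left out. Offsets for GC content and length (lowess, span 0.3), and all alternatives for the lists, were chosen after seeing the data.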

Additional observations from a re-analysis of the deposited data

Results flagged for a closer look

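The share of the transcripts of EFNB2 in its gene sum moved in opposite ways with isoproterenol in 2 lines. In β-arrestin1/2 KO cells the share of the processed transcript EFNB2-202 was higher in every treated library than the basal mean, by 25.4 percentage points on average, and in wildtype cells it was lower in every treated library than the basal mean, with a mean change of -17.8 percentage points. The difference between the lines was 43.18 percentage points for EFNB2-202 and -43.18 for EFNB2-203, the protein-coding transcript. This difference was not tested. The wildtype groups overlapped, and the basal mean of wildtype cells includes replicate 1, which had the highest share of all libraries. Without it the basal mean was 28.9%, the mean change was -9.39 percentage points and 2 of the 3 treated libraries lay below that mean.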

How the results depend on the processing

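With only the groups compared in the fit, 2 of 7 ephrins were called in β-arrestin1/2 KO and 0 in Gαs KO against wildtype at basal, 5 in Gαs KO against wildtype with isoproterenol and 7 between the treated KO lines. For Gαs KO against wildtype at basal, upper-quartile scaling gave 1, an adjusted p under 0.01 gave 1 and GC and length offsets gave 5. The stricter threshold gave 2 between the KO lines at basal, and the offsets gave 7 between the treated KO lines. The share of all genes called, which also moves with the setting, is not given here for these alternatives. Leaving out 1 library gave 4 to 6, 1 to 5 and 2 to 5 called ephrins at basal (β-arrestin1/2 KO and Gαs KO against wildtype, and between the KO lines), 3 to 5, 2 to 5 and 3 to 6 with isoproterenol, and 0 in every response and interaction. The ends came from wildtype basal replicate 1 (5 in Gαs KO against wildtype in both conditions), any Gαs KO basal library (1 in Gαs KO against wildtype at basal) and Gαs KO basal replicates 1 and 2 (2 between the KO lines).

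For EFNB2, protein-coding transcripts alone gave log2 differences of 3.63, 0.29 and 3.34 at basal (β-arrestin1/2 KO minus wildtype, Gαs KO minus wildtype, β-arrestin1/2 KO minus Gαs KO) and 2.81, -0.15 and 2.96 with isoproterenol. The wildtype response was then 0.47, that of the β-arrestin1/2 KO line -0.35 and that of the Gαs KO line 0.03, and the KO responses differed from wildtype by -0.82 and -0.44. Leaving out 1 library kept EFNB2 within 3.05 to 3.20, -0.46 to -0.32 and 3.47 to 3.55 at basal.

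With only the groups compared, the receptors called were 2 and 3, the partners 5 and 3 and the Notch and arterial regulators 3 and 5 (β-arrestin1/2 KO and Gαs KO against wildtype at basal). The offsets gave 25 and 22 partners. Leaving out 1 library gave 12 to 22 and 8 to 20 partners (22 and 20 without wildtype basal replicate 1), and 5 to 12 Notch and arterial regulators in β-arrestin1/2 KO cells (5 without basal replicate 2 or 3 of that line). For receptors in the β-arrestin1/2 KO response it gave 0 to 2 (2 without wildtype basal replicate 1), and upper-quartile scaling gave 0. The share of all genes called moves with the setting too. It was 33.5% in the main fit and 47.5% without wildtype basal replicate 1 (β-arrestin1/2 KO against wildtype at basal). For the other settings here it is not given, so these changes in count need not be particular to the listed genes. The cause of these moves was not tested.

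With the replicate number as a block, EFNA2 in Gαs KO against wildtype at basal was not called (log2 -0.42, adjusted p = 0.0673), which left 2 called ephrins, and the block changed no other ephrin call. Same-numbered libraries share only a number. No called difference of an ephrin or a named list gene changed sign under any alternative, whereas differences that were not called did, such as the wildtype responses of EFNB1 and EFNA3.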
